A study of Rattus norvegicus with 48 samples.

Results

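The 9 enzymes described here carry, interconvert or use folate-bound 1-carbon units: Mthfd1l, Mthfd1, Mthfd2, Mthfd2l, Shmt1, Shmt2, Aldh1l1, Aldh1l2 and Tyms. They were taken by symbol from 32883 genes in each of 2 count tables, and all 9 passed the filter on low counts in both tissues. Mthfd1l was chosen because its count differed between young ovariectomised and young sham animals in the posterior eye, and the other 8 because they belong to the same pathway. The values of that comparison are therefore given below as a description, with no test.

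RNA was sequenced from the retina and from the posterior eye of 24 female Long-Evans rats, an outbred pigmented strain, which gave 48 libraries. Animals were young (3 to 4 months) or middle-aged (9 to 10 months, called aged here, as on the sample labels), and every animal had surgery. In ovariectomy (OVX), a model of surgical menopause, the ovaries were removed, and in sham surgery they were left in place. Crossing age with surgery gave 4 groups of 6 animals (young sham and young OVX, then aged sham and aged OVX), each with both tissues from the same animals. The labels do not state how long after surgery the tissue was taken, or a hormone level.

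Folate carries single carbon atoms between amino acids, nucleotides and methyl groups, and the same chain of reactions runs in mitochondria and in the cytosol. In mitochondria Shmt2 takes a carbon from serine, Mthfd2 or Mthfd2l oxidises it, and Mthfd1l, a monofunctional 10-formyl-tetrahydrofolate synthetase, releases it as formate, which the cytosol can use. There the trifunctional Mthfd1 puts formate back on folate for purine synthesis, for thymidylate synthesis by Tyms and for methionine synthesis, and Shmt1 links the pool to serine and glycine. Aldh1l1 in the cytosol and Aldh1l2 in mitochondria burn the formyl carbon to carbon dioxide. In the eye, dividing cells of a growing tissue need thymidylate and purines, while mature photoreceptors do not divide.

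The 250 bases before the transcription start in RefSeq (rat build GRCr8, which is not the build of the count tables) were found for 7 of the 9 genes and not for Mthfd1 and Aldh1l2. Motifs named for regulators of this pathway or of the ovarian hormones were searched on both strands: the oestrogen response element GGTCANNNTGACC, its single arm AGGTCA, the amino acid response element TGATGNAA, the cyclic AMP response core TGACG and the E-box CACGTG. They occur in 0.0239%, 14.06%, 3.403%, 18.22% and 5.593% of 33469 promoter windows of the same length. The windows of Mthfd1l, the gene on which the choice rests, and of Shmt1, the gene with the largest difference between tissues among the 9, are shown, with matches in capitals.
Mthfd1l, chr1:42849174-42849423, plus strand: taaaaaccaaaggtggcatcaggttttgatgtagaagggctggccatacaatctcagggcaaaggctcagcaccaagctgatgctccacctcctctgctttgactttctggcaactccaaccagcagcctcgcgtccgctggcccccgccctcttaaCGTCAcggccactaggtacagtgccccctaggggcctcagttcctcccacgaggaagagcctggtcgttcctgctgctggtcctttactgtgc
Shmt1, chr10:45990342-45990591, minus strand: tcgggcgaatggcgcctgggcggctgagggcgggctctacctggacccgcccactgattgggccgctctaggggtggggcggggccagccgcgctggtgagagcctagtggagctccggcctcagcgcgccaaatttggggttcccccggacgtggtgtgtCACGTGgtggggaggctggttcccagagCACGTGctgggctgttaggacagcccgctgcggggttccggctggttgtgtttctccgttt
The Mthfd1l window holds 1 cyclic AMP response core, read on the opposite strand as CGTCA from -93 to -89 before the start. The Shmt1 window holds 2 E-boxes, from -89 to -84 and from -61 to -56. Mthfd2l has 1 AGGTCA arm, from -218 to -213, and the other 4 windows hold none of these letters. These matches describe the sequence and do not show that a factor binds there.

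Posterior eye libraries held 11470945 to 22971367 counts and retina libraries 12916146 to 30737547. Levels are given as counts per 1000000 library counts (CPM) after scaling for composition within a tissue, unless both tissues are compared. The spread between animals of a group, as the common coefficient of variation over all genes, was 33.4% for posterior eye libraries and 12.0% for retina libraries. The rod transducin gene Gnat1 stood at 11937 to 16180 CPM in retina libraries and at 14.1 to 5256 CPM in posterior eye libraries, so rod RNA varied widely between posterior eye libraries. The collagen gene Col1a1 stood at 798 to 3261 CPM in posterior eye libraries against 0.146 to 4.00 CPM in retina, and Rpe65, of the retinal pigment epithelium, at 123 to 565 against 6.57 to 56.4 CPM. The defining markers of both labelled tissues were thus present. In such mixed tissue, fewer cells of a type and less RNA per cell cannot be told apart.

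In the posterior eye, Mthfd1l was low in young sham animals and higher in each of the other 3 groups. Young sham libraries had 11.3, 15.1 and 17.7 CPM (lowest, median and highest; mean 14.8 ± 2.11, SD, n = 6). Young OVX libraries had 18.9, 23.8 and 29.3 CPM (mean 23.9 ± 3.55, SD, n = 6). The highest young sham library was thus below the lowest young OVX library. Aged sham libraries lay close together, at 20.6, 21.3 and 22.4 CPM (mean 21.3 ± 0.649, SD, n = 6). Aged OVX libraries had 21.1, 23.3 and 25.9 CPM (mean 23.4 ± 1.93, SD, n = 6). In rising order of the mean came young sham, aged sham, aged OVX and then young OVX. The young sham range touched none of the others, and each of the other 3 ranges overlapped the next. These levels rest on 128 to 511 counts per library.

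In young posterior eye the log2 fold change of Mthfd1l, OVX against sham, was 0.69 ± 0.10 (SE of the fit), the value that chose the gene. It was the only one of the 9 called in that contrast, at an adjusted p under 0.05, where 0.00610% of 16401 genes were called, and the only one whose groups did not overlap, as in 0.238% of genes. Both counts follow from how the gene was chosen, so nothing is read from them. In aged posterior eye, which the choice did not use, the fold change was 0.14 ± 0.10 (approximate 95% interval -0.05 to 0.32), with an adjusted p of 0.999879 by edgeR's quasi-likelihood test. Of the aged OVX libraries, 5 of 6 were above the aged sham median, and the ranges overlapped. The young and aged values differed by -0.55 ± 0.14, which contains the choosing contrast and is not tested. The young sham group also enters the age comparison of sham animals, where Mthfd1l stood 0.52 ± 0.10 higher in aged animals. Between aged and young OVX animals its difference was -0.03 ± 0.10.

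**Figure D1:**
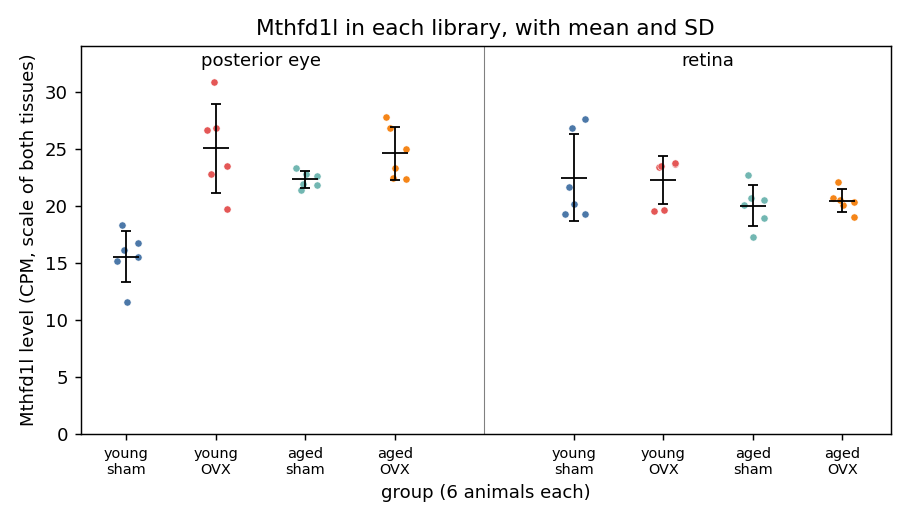
Mthfd1l level in CPM, on the scale shared by both tissues, in every posterior eye library (left) and retina library (right), by group, with 6 animals per group. Points are libraries and bars the mean with SD: on this scale posterior eye young sham libraries average 15.6 CPM, against 25.0 in young OVX, 22.3 in aged sham and 24.6 in aged OVX libraries, while the 4 retina groups average 20.0 to 22.5 CPM.

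The retina of the same animals did not show this pattern. Since Mthfd1l was chosen on the posterior eye, nothing is read from that difference between the tissues. Mthfd1l had 19.8, 22.0 and 28.9 CPM in young sham retina (mean 23.5 ± 3.92, SD, n = 6). Young OVX retina had 20.5, 24.8 and 24.9 CPM (mean 23.4 ± 2.24, SD, n = 6). Aged sham retina had 18.2, 21.2 and 23.5 CPM (mean 20.8 ± 1.85, SD, n = 6), and aged OVX retina had 20.3, 21.3 and 23.4 CPM (mean 21.5 ± 1.09, SD, n = 6). All 4 ranges overlapped. OVX against sham gave -0.01 ± 0.09 in young retina (interval -0.17 to 0.16, edgeR adjusted p 0.991) and 0.04 ± 0.09 in aged retina (interval -0.13 to 0.22, edgeR adjusted p 0.969). Aged against young gave -0.17 ± 0.09 in sham animals (edgeR adjusted p 0.494) and -0.12 ± 0.09 in OVX animals (edgeR adjusted p 0.712). The retinal difference between the ages in the OVX effect was 0.05 ± 0.12 (edgeR adjusted p 0.957).

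Set side by side in a fit of both tissues, the young OVX effect on Mthfd1l was 0.70 ± 0.13 larger on the log2 scale in the posterior eye than in the retina. That difference contains the choosing contrast and is not tested. The fit calls 0.0175% of 17153 genes there, Mthfd1l among them, but nothing is read from that, since the choice bears on it. With the animal as a replicate block, and with no filter on low counts, 0 members are called, and nothing is read from these counts either. The aged OVX effect differed between tissues by 0.11 ± 0.13 (interval -0.15 to 0.37, edgeR adjusted p 0.999988, with 0% of genes called). Over the 24 animals the Mthfd1l deviation from the group mean in the retina had a Pearson r of 0.01 with that in the posterior eye. This is a description over 24 pairs of libraries that share an animal but not a tissue.

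The other mitochondrial enzymes showed no such gap between young sham and young OVX posterior eye. Groups with no overlap there were found for 0.238% of all genes. Since Mthfd1l was chosen on that contrast, nothing is read from the difference between it and these enzymes. Shmt2, which feeds serine carbon into the mitochondrial chain, had 54.9, 60.6 and 63.3 CPM in young sham and 50.8, 53.01 and 69.9 CPM in young OVX, a fold change of -0.07 ± 0.08. Mthfd2, the dehydrogenase and cyclohydrolase best known from embryonic and tumour tissue, had 4.44, 6.39 and 7.32 CPM in young sham and 4.83, 5.38 and 8.50 CPM in young OVX (-0.10 ± 0.18). Its relative Mthfd2l had 2.18, 3.08 and 4.71 CPM against 2.81, 3.30 and 4.29 CPM (0.03 ± 0.19). For each of these 3 genes the young sham and young OVX ranges overlapped. These small values moved with single libraries, for Mthfd2 to -0.23 ± 0.17 without young OVX animal 10 and for Shmt2 to -0.12 ± 0.06 without young OVX animal 11. In the aged animals they overlapped as well, with mean levels of 63.1 ± 5.27 and 64.1 ± 2.80 CPM for Shmt2 (SD, n = 6 each, sham first), 6.22 ± 1.29 and 6.42 ± 1.66 for Mthfd2, and 3.12 ± 0.661 and 3.02 ± 0.475 for Mthfd2l.

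Aldh1l2, the mitochondrial enzyme that oxidises formyl-folate, was the member with the widest differences by age in the posterior eye, and edgeR called none of them. Young sham libraries had 3.29, 3.62 and 4.48 CPM and aged sham libraries 1.42, 1.76 and 3.07 CPM, with no overlap. Young OVX libraries had 1.83, 3.40 and 4.47 CPM and aged OVX libraries 0.928, 1.49 and 2.699 CPM, ranges that overlapped. Aged against young was -0.87 ± 0.27 in sham animals (unadjusted p 0.0036, edgeR adjusted p 0.999808) and -1.05 ± 0.27 in OVX animals (unadjusted p 0.00081, edgeR adjusted p 0.269). DESeq2 called the second of these, with an adjusted p of 0.0445, in a contrast where it called 65 genes in all. The range over all alternatives was 0.0445 to 0.605. In the sham contrast 0.128% of all genes had groups that did not overlap, and Mthfd1l was the other member among them. Its gap there rests on the young sham libraries that chose the gene, so nothing is read from it. The Aldh1l2 levels rest on 13 to 90 counts per library. OVX against sham was -0.27 ± 0.26 in young animals (-0.14 ± 0.27 without young OVX animal 10 and -0.15 ± 0.27 without young OVX animal 12), and the aged means were 2.08 ± 0.751 CPM in sham and 1.52 ± 0.638 CPM in OVX animals (SD, n = 6 each).

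Of the cytosolic enzymes, Mthfd1 had 68.4, 79.0 and 101 CPM in young sham and 61.6, 75.9 and 99.3 CPM in young OVX posterior eye, a fold change of -0.04 ± 0.11. Its aged means were 86.5 ± 9.37 CPM in sham and 90.7 ± 6.99 CPM in OVX animals (SD, n = 6 each). Shmt1 had 38.6, 47.1 and 61.2 CPM in young sham and 27.7, 36.1 and 58.1 CPM in young OVX (-0.34 ± 0.20), and its aged means were 52.2 ± 13.5 and 48.8 ± 11.7 CPM. Aldh1l1, an astrocyte marker in the brain and the cytosolic counterpart of Aldh1l2, had 9.66, 14.3 and 22.9 CPM in young sham and 8.40, 10.8 and 15.8 CPM in young OVX (-0.39 ± 0.29). That value was -0.01 ± 0.27 with the sebaceous marker level as a covariate and -0.25 ± 0.30 without young sham animal 6. Its aged means were 13.8 ± 7.14 and 12.9 ± 3.90 CPM. All sham and OVX ranges of these 3 genes overlapped within an age. Tyms, which makes thymidylate for DNA synthesis, had 7.39, 9.88 and 12.2 CPM in young sham and 7.85, 9.25 and 13.0 CPM in young OVX, and its fold change was 0.00 ± 0.19. Its aged means were 8.92 ± 1.95 CPM in sham and 7.97 ± 2.72 CPM in OVX animals (SD, n = 6 each).

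**Figure D2:**
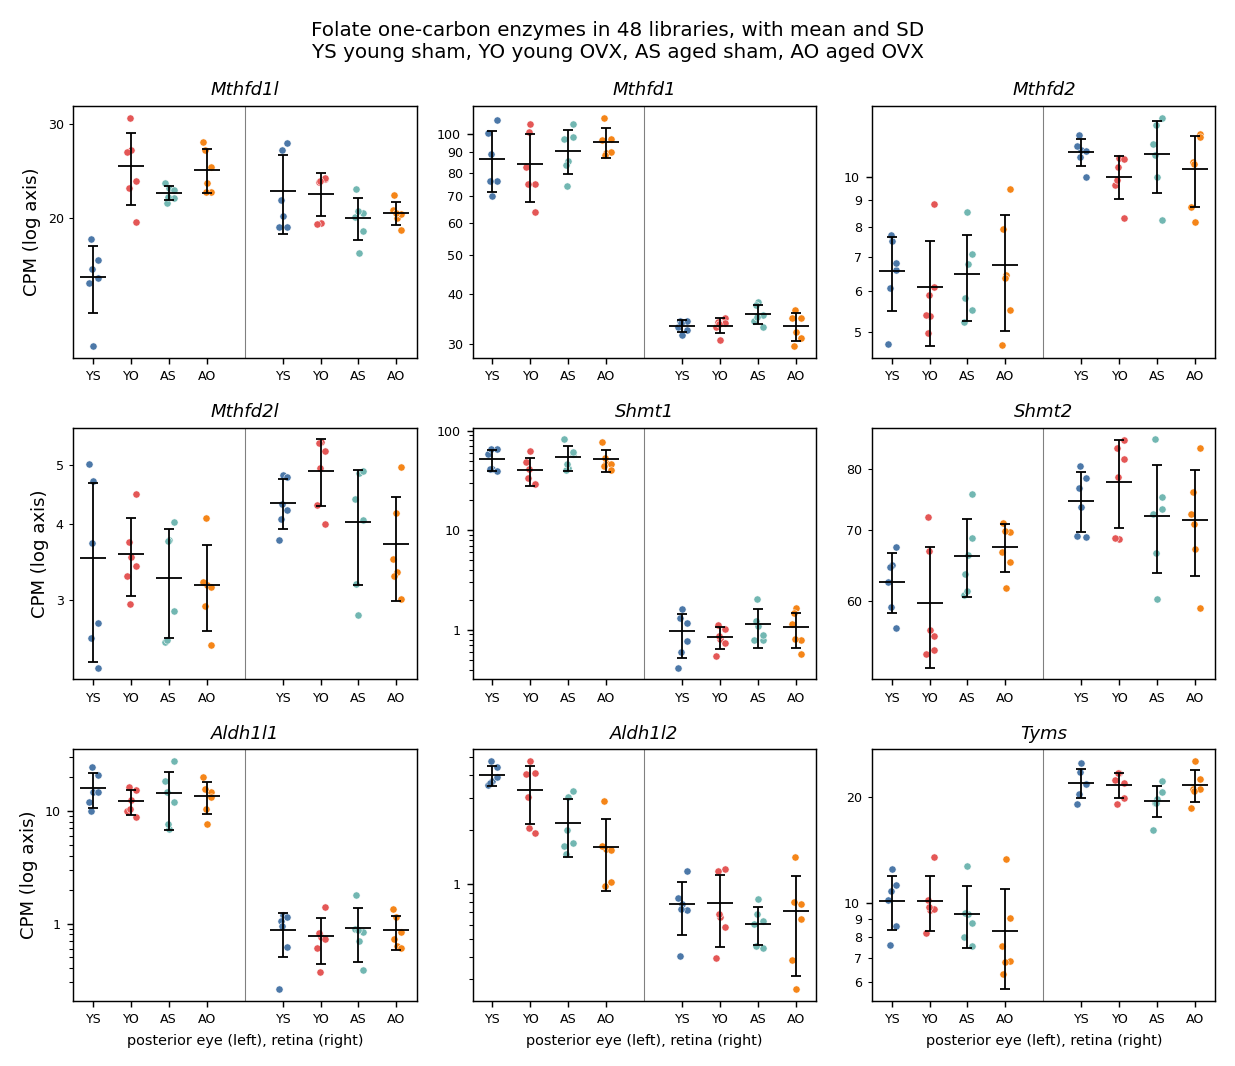
Level of each of the 9 enzymes in all 48 libraries, in CPM on a log axis and on the scale shared by both tissues, with the posterior eye on the left and the retina on the right of each panel. Points are libraries and bars the mean with SD (n = 6 animals per group). Shmt1 and Aldh1l1 lie over 3 times higher in every posterior eye library than in any retina library, and Tyms is higher in every retina library than in any posterior eye library.

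By edgeR, 0 of the 9 enzymes were called between aged OVX and aged sham posterior eye, 0 between aged and young sham and 0 between aged and young OVX. At an unadjusted p under 0.05 the counts were 0, 2 and 2, DESeq2 called 0, 1 (Mthfd1l) and 1 (Aldh1l2), and limma-voom called 0 in each. For Mthfd1l the count and the DESeq2 call in sham animals rest on the young sham libraries that chose the gene, and nothing is read from them. Of all 16401 genes, 0% were called by edgeR in each of these contrasts, and 2.57%, 2.93% and 10.1% had an unadjusted p under 0.05. Over all genes DESeq2 called 0, 5 and 65, and limma-voom 0, 0 and 1. Among the 2 in aged against young OVX animals was Shmt2, at 0.17 ± 0.08 (edgeR adjusted p 0.445). The median fold change of the 9 enzymes was -0.07 in young and -0.04 in aged animals for OVX against sham, beside medians of -0.01 and 0.00 over all genes tested.

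In the retina edgeR called 0 of the 9 enzymes in any of the 5 contrasts. The share of all 15481 genes called was 0.0194% for young OVX against sham, 0.00646% for aged OVX against sham, 0.0388% and 0.0711% for aged against young in sham and OVX animals, and 0.0452% for the interaction. Limma-voom also called 0 members, and so did DESeq2, which gave 3 of the 9 no adjusted p in aged against young sham. Of the 9, 0, 0, 1, 1 and 0 had an unadjusted p under 0.05, beside 11.7%, 6.47%, 10.7%, 9.23% and 6.21% of all genes. These were Tyms, -0.17 ± 0.08 in aged against young sham (edgeR adjusted p 0.424), and Mthfd2l, -0.40 ± 0.14 in aged against young OVX (edgeR adjusted p 0.342), both named after their values were seen. Mthfd2l had 4.20, 5.38 and 5.74 CPM in young OVX retina and 3.14, 3.59 and 5.28 CPM in aged OVX retina, on 45 to 142 counts. Tyms had 20.2, 22.5 and 26.2 CPM in young sham retina and 17.0, 20.4 and 22.7 CPM in aged sham retina. The ranges of both pairs overlapped.

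Retinal Shmt2 had group means of 75.0 to 81.8 CPM, Mthfd1 of 34.7 to 37.005 CPM and Mthfd2 of 10.5 to 11.6 CPM. Retinal Shmt1, Aldh1l1 and Aldh1l2 were near the detection limit, with 5 to 42 counts per library and group means of 0.895 to 1.18, 0.821 to 0.951 and 0.632 to 0.827 CPM. Differences between groups in these 3 genes were not detectable at this depth unless large.

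**Figure D3:**
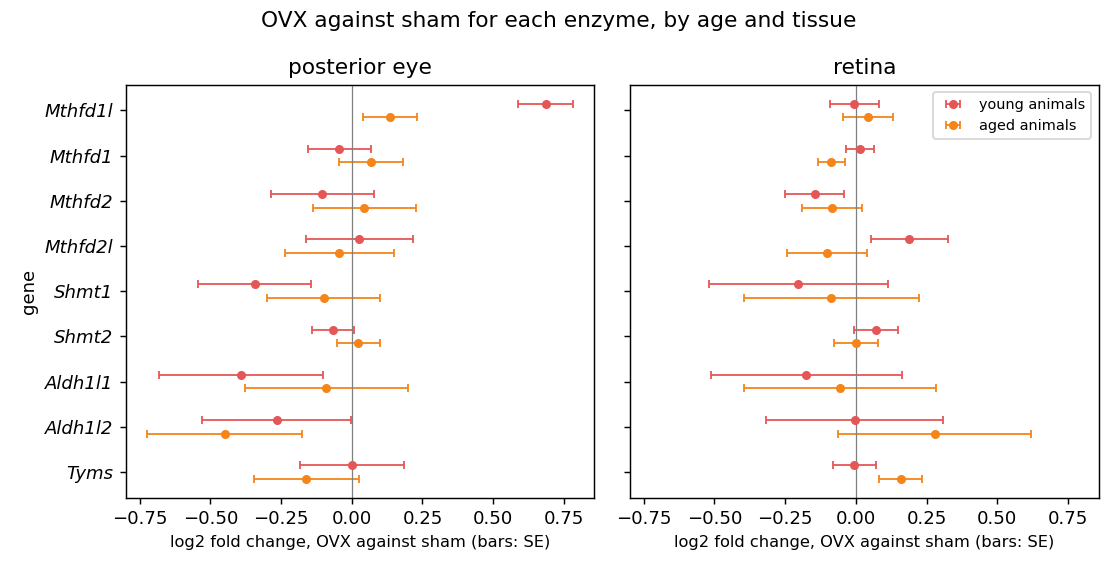
Log2 fold change, OVX against sham, of each enzyme (rows) in the posterior eye (left) and the retina (right), with red points for young and orange points for aged animals and bars for the SE of the fit. Mthfd1l in young posterior eye stands at 0.69, and the aged posterior eye value and both retina values of that gene lie between -0.01 and 0.14.

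Between tissues, 8 of the 9 enzymes differed in the fit of all 48 libraries by edgeR, DESeq2 and limma-voom alike. That fit does not pair the tissues of an animal, and with the animal as a replicate block 8 were called again. Tissues differ in most genes: 93.0% of 17153 genes were called, 47.8% higher and 45.2% lower in the posterior eye. Higher in the posterior eye were Shmt1 by 5.62 ± 0.14 on the log2 scale, Aldh1l1 by 4.01 ± 0.17, Aldh1l2 by 1.86 ± 0.15 and Mthfd1 by 1.40 ± 0.05. Both enzymes that burn formyl-folate and both major cytosolic enzymes are in that group. Lower in the posterior eye were Tyms, -1.16 ± 0.07, Mthfd2, -0.71 ± 0.07, Mthfd2l, -0.32 ± 0.08, and Shmt2, -0.21 ± 0.04. Tyms and 3 mitochondrial enzymes make up that group. The members called higher and lower are near the shares of all genes, so no pattern by compartment or role is read from them. Mthfd1l was not called, at 0.02 ± 0.05 (interval -0.08 to 0.11, edgeR adjusted p 0.743), higher in the posterior eye in 14 of 24 animals.

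On the scale of both tissues, Shmt1 had 28.9, 46.5 and 82.0 CPM in posterior eye libraries and 0.418, 0.882 and 2.06 CPM in retina libraries (edgeR adjusted p 1.58e-33), and was higher in the posterior eye in 24 of 24 animals. Mthfd1 had 64.1, 89.5 and 110 CPM against 29.6, 33.9 and 38.1 CPM, also in 24 of 24 animals. Tyms had 6.32, 9.38 and 13.6 CPM in posterior eye libraries and 16.1, 21.1 and 25.4 CPM in retina libraries (edgeR adjusted p 4.17e-20), and was lower in the posterior eye in 24 of 24 animals. For Shmt1, Mthfd1, Aldh1l1 and Tyms the ranges of the tissues did not overlap. Shmt2, by contrast, differed little, with 53.4, 64.8 and 75.7 CPM against 59.1, 73.4 and 85.3 CPM. RefSeq lists the pseudogenes Mthfd1-ps1 and Shmt2-ps1, so reads counted for Mthfd1 and Shmt2 could include some from those copies or have lost some to them.

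The level of Tyms went against that of other S-phase genes. Of 12 S phase and mitosis genes, 11 were called higher in the posterior eye and 1 lower, beside 47.8% and 45.2% of all genes. Their median difference was 2.65 beside 0.05 over all genes, and 11 were again called higher with size factors in place of TMM. Mcm3, a subunit of the replicative helicase, averaged 25.98 CPM in posterior eye libraries and 3.71 CPM in retina libraries (2.79 ± 0.08), and Rrm1, a ribonucleotide reductase subunit, was the gene called lower (-0.24 ± 0.03). Of 30 other genes of folate and 1-carbon metabolism, 16 were called higher and 12 lower in the posterior eye, with a median of 0.28 beside 0.05. These counts are near the shares of all genes, so nothing is read from them. Among the 30 genes, Folr2, a folate receptor of macrophages, averaged 17.3 CPM in posterior eye libraries and 0.323 CPM in retina libraries (5.75 ± 0.25).

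The balance of isozymes was followed as the log2 ratio of their counts within a library, which does not depend on scaling between libraries. The Mthfd1l to Mthfd1 ratio in the posterior eye was -2.73, -2.53 and -2.06 in young sham animals (lowest, median, highest). It was -1.98, -1.71 and -1.64 in young OVX, -2.27, -2.01 and -1.76 in aged sham and -2.03, -1.97 and -1.80 in aged OVX animals. Young sham and young OVX ratios did not overlap. Since Mthfd1l was chosen on this contrast, the gap is described only. In the retina the same ratio was -0.82, -0.65 and -0.24 in young sham and -0.76, -0.54 and -0.50 in young OVX animals, which overlapped.

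The Shmt2 to Shmt1 ratio in the posterior eye had medians of 0.31 in young sham, 0.78 in young OVX, 0.40 in aged sham and 0.44 in aged OVX animals, and all ranges overlapped. In the retina its group medians were 6.17 to 6.40, so Shmt2 counts exceeded Shmt1 counts there by far more than in the posterior eye. The Aldh1l2 to Aldh1l1 ratio in the posterior eye had medians of -1.88, -2.04, -2.61 and -3.29 in the same order of groups. It ran from -2.41 to -1.45 in young sham and from -2.41 to -1.31 in young OVX animals. In aged sham animals it ran from -4.01 to -1.20, which holds both young ranges, and in aged OVX animals from -3.65 to -2.28.

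**Figure D4:**
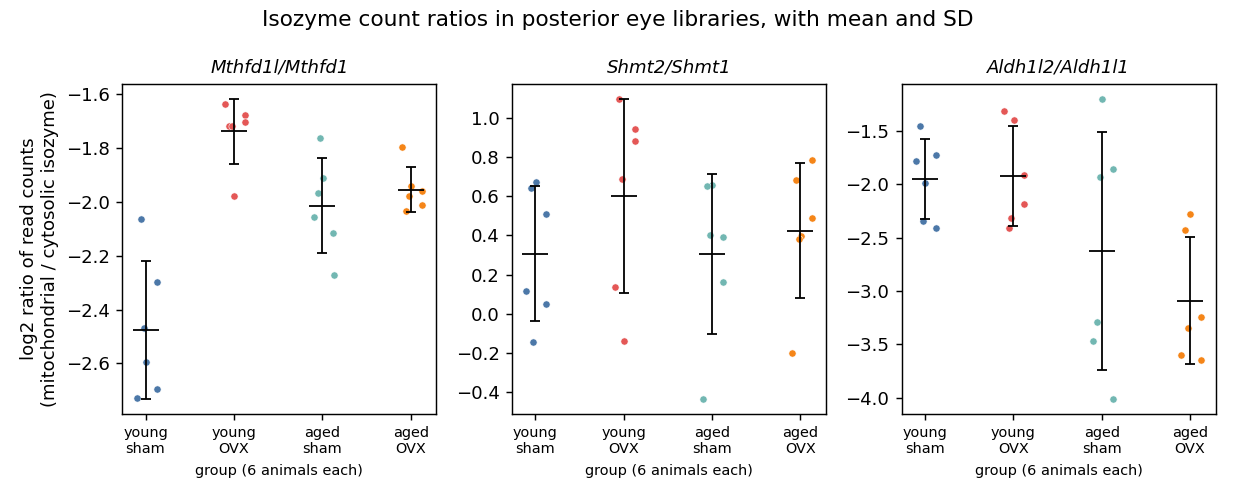
Log2 ratio of read counts, mitochondrial over cytosolic isozyme, in each posterior eye library for 3 enzyme pairs, by group (6 animals each), with the mean and SD. The Mthfd1l to Mthfd1 ratio is lowest in young sham animals, whose highest value, -2.06, is below the lowest young OVX value, -1.98, and the other pairs overlap between sham and OVX.

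The rest of the pathway was taken as lists by role: folate transport, folate reduction and methyl transfer, glycine cleavage, serine synthesis and the methionine cycle. Of such genes 30 were tested for the posterior eye and 29 for the retina, and edgeR, DESeq2 and limma-voom called 0 in each of the 5 contrasts within a tissue. In young posterior eye 24 of the 30 had a fold change above 0 for OVX against sham, with a median of 0.06, beside 47.2% of all genes and a median of -0.01, and 2 had an unadjusted p under 0.05. Over all genes 1023 of 16401 had such a p. In aged posterior eye 19 of 30 were above 0, beside 51.0% of all genes, with a median of 0.06, and 4 had an unadjusted p under 0.05, beside 2.57% of all genes. In the retina 20 of 29 were above 0 in young and 13 of 29 in aged animals, beside 49.7% and 49.8% of all genes, with medians of 0.04 and -0.02. Of these, 3 and 2 had an unadjusted p under 0.05, beside 11.7% and 6.47% of all genes.

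Among the genes with the smallest p in these lists, the amino acid stress gene Chac1, which degrades glutathione, averaged 16.6 ± 3.23 CPM in young sham and 10.7 ± 2.07 CPM in young OVX posterior eye (SD, n = 6 each). Nars, an asparaginyl-tRNA synthetase, averaged 130 ± 8.96 and 117 ± 11.0 CPM. Both come from the contrast that chose Mthfd1l and are given without a test. In aged posterior eye Mat2b, a regulatory subunit of methionine adenosyltransferase, averaged 78.1 ± 2.89 CPM in sham and 89.4 ± 6.34 CPM in OVX animals, and the folate transporter Slc46a1 averaged 21.7 ± 2.12 and 18.8 ± 1.49 CPM (edgeR adjusted p 0.999879 for both). The reduced folate carrier Slc19a1 in the retina averaged 23.5 ± 2.35 CPM in young sham, 27.2 ± 2.38 in young OVX, 27.1 ± 1.59 in aged sham and 23.9 ± 1.87 in aged OVX animals (SD, n = 6 each). OVX against sham for that carrier had an edgeR adjusted p of 0.217 in young and 0.717 in aged animals. In young retina the stress gene Sesn2 averaged 41.2 ± 2.36 CPM in sham and 45.9 ± 3.63 CPM in OVX animals (edgeR adjusted p 0.360). In aged retina Atic, which completes purine synthesis, averaged 49.7 ± 2.05 CPM in sham and 46.7 ± 1.16 CPM in OVX animals (edgeR adjusted p 0.750).

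The lists for purine synthesis (4 genes), the amino acid stress response (13 genes) and S phase and mitosis (12 genes tested in posterior eye, 11 in retina) also had 0 genes called by edgeR, DESeq2 or limma-voom in any contrast within a tissue. For OVX against sham in aged posterior eye, all 12 S phase genes had a fold change above 0, beside 51.0% of all genes. Their median was 0.17 beside 0.00 over all genes. Of the 12, 1 had an unadjusted p under 0.05, beside 2.57% of all genes. In young posterior eye 7 of 12 were above 0, beside 47.2% of all genes. For aged against young OVX posterior eye, all 12 again had a fold change above 0, beside 46.1% of all genes, with a median of 0.37 beside -0.02. Of the 12, 6 had an unadjusted p under 0.05, beside 10.1% of all genes. Markers of other cell types moved in the same contrast: 0 of 6 lens markers were above 0 (median -2.34, 5 at an unadjusted p under 0.05), 0 of 5 sebaceous markers (median -2.47), 0 of 4 Schwann and myelin markers (median -0.79) and 1 of 5 Muller glia and astrocyte markers (median -0.56). The rod, scleral fibroblast, melanocyte, endothelial and macrophage lists also had medians below 0. Above 0 were 3 of 4 adipocyte markers (median 0.38), 4 of 5 skeletal muscle markers (median 0.09) and 4 of 6 pigment epithelium markers (median 0.05). The summed lens level ran from 42.7 to 1789 CPM in young OVX and from 54.7 to 270 CPM in aged OVX libraries, and its part in the S phase values was not tested. Tyms stood at -0.28 ± 0.19 in the same contrast (edgeR adjusted p 0.655).

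Markers of other cell types varied between the same posterior eye libraries. The summed level of 5 sebaceous gland markers ran from 28.5 to 2185 CPM in young sham (median 371), from 33.6 to 155 in young OVX (median 37.5), from 25.2 to 1864 in aged sham (median 34.3) and from 20.2 to 32.5 in aged OVX (median 29.2). All 5 had a fold change below 0 for young OVX against young sham posterior eye, with a median of -4.75. For aged OVX against aged sham all 5 were below 0 as well, with a median of -6.08. The part of these markers in the Mthfd1l values was not tested. The covariate fits given below are descriptions. The summed level of 6 rod markers had medians of 10478 CPM in young sham and 2594 CPM in young OVX, with ranges of 626 to 28026 and 62.2 to 29920 CPM. The 6 lens markers had medians of 276 and 439 CPM in the same groups, and 4 melanocyte markers 2765 and 3819 CPM. No listed marker that is in the tables was at 0 in all 6 posterior eye libraries of a group. Within groups the mean log2 level of the markers had a Pearson r with Mthfd1l of -0.11 for sebaceous and -0.42 for rod markers. For melanocyte and scleral fibroblast markers it was 0.43 and 0.38, and no covariate was fitted for those 2 lists. With the sebaceous level as a covariate the young posterior eye value of Mthfd1l was 0.66 ± 0.11, and with the rod level 0.65 ± 0.09. With the sebaceous covariate 0 members were called in that contrast, and with the rod covariate 1. Fitting only the 2 groups compared gave 0.69 ± 0.12, and again 0 members called. These counts reuse the values that chose Mthfd1l, so nothing is read from them, also not about cell makeup.

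Within groups, the genes whose log2 CPM followed that of Mthfd1l most closely over the 24 posterior eye libraries included Smc2 (Pearson r 0.79), a condensin subunit, Prkd2 (0.76), a protein kinase, B3gnt2 (0.75), a glycosyltransferase, and Ppial4d (0.75). The median r over 12937 genes was 0.05. In the retina they were Wls (0.86), which escorts Wnt proteins, Ahnak (0.86), Lima1 (0.86), Fgfr1 (0.86), a growth factor receptor, and Fzd1 (0.85), a Wnt receptor, beside a median of -0.04 over 12011 genes. Different genes headed the list in each tissue, but short lists from so many genes could differ in any case, so nothing is read from that. In the retina the mean log2 level of the lens markers, which summed to 2296 to 35417 CPM, had an r of 0.57 with Mthfd1l. Sebaceous gland markers, at 14.5 to 24.6 CPM and with Awat1 at 0 in all libraries of 3 groups, had an r of 0.63, and Schwann and myelin markers, at 24.8 to 51.4 CPM, an r of 0.53. Their part in these likenesses was not tested.

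Among the enzymes themselves, Mthfd1l in the posterior eye had an r of 0.56 with Mthfd1, 0.37 with Shmt1, -0.47 with Tyms and -0.46 with Mthfd2l within groups. In the retina its closest member was Shmt2, with an r of 0.71, where the posterior eye value was 0.04. The points of each correlation are 24 libraries that share depth and tissue makeup as well as the genes compared, so these values are descriptions.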

How the data were processed

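The deposited files are tables of raw read counts per gene, whole numbers with no normalization by the authors, for 24 retina and 24 posterior eye libraries. Every column was matched to an animal and group through its label, and 0 sample columns were left unused. Per the labels' protocols, full-length cDNA was amplified with a low-input SMART-Seq kit and sequenced in pairs, with no strand marking described, so reads from overlapping genes on opposite strands cannot be told apart. The submitters' processing notes name STAR 2.7.3a, HTSeq, DESeq2 and the build Rnor_6.0 without their roles. How reads were counted, and against which annotation, is not given in the sources used here.

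Counts were tested with edgeR 4.0.16 in R 4.3.3 (TMM scaling, its default expression filter, quasi-likelihood F test), with 1 mean per group over the 24 libraries of a tissue, or over all 48 for comparisons of tissues. Of 32883 genes the filter kept 16401 for posterior eye, 15481 for retina and 17153 for both. P-values were adjusted over all genes tested by Benjamini-Hochberg and genes under 0.05 after adjustment are the ones called. The SE of a fold change is its size divided by the square root of F, and approximate 95% intervals are 1.96 SE to either side. Median read totals were 18266453 for posterior eye and 17937769.5 for retina libraries. No libraries were identical (0 pairs), and the labels number the animals separately. Alternatives were DESeq2 1.42.0, limma-voom (limma 3.58.1), size factors in place of TMM, no filter, only the groups compared, marker levels as covariates, each library left out, and the animal as a block. The scripts were tested on simulated data.

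Both tissues come from the same animals by the labels. The deviations of a pair from their group means had a median correlation over genes of 0.07, and 10 of 24 animals exceeded 0.1.

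The 9 enzymes, the pathway lists and the marker lists were chosen with earlier results of these data known. The rule for named genes gave every enzyme its levels, Mthfd1l its fold change in each contrast, the others theirs in young posterior eye and where called, up to 4 called genes per pathway contrast or, with none called, the 2 of smallest p for OVX against sham, and the 5 genes most like Mthfd1l in each tissue among those with a mean of at least 2 CPM. Of the last, 1 gene in the posterior eye is not reported here. Genes named outside the rule are marked as named after their values were seen, as are Aldh1l2 and Shmt2 by age. Isozyme ratios use counts plus 0.5. Levels are not compared between genes, since gene lengths were not used.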

Additional observations from a re-analysis of the deposited data

Results flagged for a closer look

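In 4 of 72 groups of 6 libraries, 1 library stood apart from the other 5 by Dixon's criterion, where chance flags about 1 in 20. Mthfd2 was at 8.50 CPM in the posterior eye of young OVX animal 10, with the others at 4.83 to 5.87. Shmt1 was at 71.3 CPM in the posterior eye of aged OVX animal 21, with the others at 38.8 to 50.5. Aldh1l2 was at 2.699 CPM in the posterior eye of aged OVX animal 23, with the others at 0.928 to 1.54. Shmt1 was at 2.13 CPM in the retina of aged sham animal 18, with the others at 0.810 to 1.28. No library of Mthfd1l stood apart in this way in any of its 8 groups. The young OVX effect on Mthfd1l differed between the tissues by 0.70 on the log2 scale, larger in the posterior eye. That contrast contains the one that chose the gene, so the value is a description.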

How the results depend on the processing

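In the young posterior eye, 1 to 1 members were called without 1 library (Mthfd1l, at 0.63 to 0.75). The count was 0 with only the 2 groups compared (0.69) and 0 with the sebaceous covariate (0.66). All of these counts reuse the values that chose the gene and support nothing. The young difference between tissues had 0 members called with no filter (0.71) and 0 with the animal as a replicate block (0.69). Those counts also reuse the values that chose the gene. The block left the other 2 comparisons of both tissues at 8 and 0 members called. With DESeq2, 1 member was called in aged against young posterior eye, both in sham (Mthfd1l) and in OVX animals (Aldh1l2). In the other contrasts within a tissue, leaving out each library gave 0 to 0 members called. Over all genes DESeq2 called 12, 0, 5, 65 and 0 genes in the posterior eye and 62, 9, 66, 68 and 22 in the retina (young OVX, aged OVX, age in sham, age in OVX, interaction), where edgeR called 1, 0, 0, 0 and 0, and 3, 1, 6, 11 and 7. Values that changed sign all lay near 0. For Mthfd1l these were the tissue difference with no filter (-0.00076), the retina aged OVX effect with the pigment epithelium (-0.027) or lens covariate (-0.038), the retina interaction with the same covariates (-0.073 and -0.026) and without 1 library (-0.018 to 0.094), the retina young OVX effect with the pigment epithelium covariate (0.046) and without 1 library (-0.051 to 0.061), and age in OVX posterior eye without 1 library (-0.086 to 0.024). In young posterior eye Mthfd1 ran from -0.11 to 0.030, Mthfd2l from -0.065 to 0.15 and Tyms from -0.095 to 0.087 without 1 library, and with the sebaceous covariate Mthfd2l was -0.0076 and Tyms -0.018. The settings for enzymes other than Mthfd1l were added after seeing the data. The cause of these changes was not tested. The aged posterior eye value of Mthfd1l was 0.10 to 0.16 and not called in each of 19 settings. Apart from fits without 1 library, 200 fold changes kept their sign and side of the threshold, 8 changed sign, 4 lost the call and 2 gained it, and 77 counts of members held while 6 moved. Retinal Shmt1, Aldh1l1 and Aldh1l2, with 5 to 42 counts per library, are limited by depth.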

Other observations

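Of the pathway genes in the retina, Slc19a1, the reduced folate carrier, had the opposite sign of OVX effect at the 2 ages: 0.21 ± 0.07 in young and -0.18 ± 0.07 in aged animals. The difference between these values was -0.40 ± 0.10, with an unadjusted p of 0.000386 and an edgeR adjusted p of 0.260, so it did not pass the test over all genes. It was named after its values were seen.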
